A study of Mus musculus with 12 samples.

Results

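The ribosome footprint libraries of the series, 6 of its 12 libraries, were compared between mice given AP20187 and mice given vehicle, over all 7318 genes that the authors listed. The 6 libraries were chosen by their labels alone: 3 footprint libraries with vehicle and 3 with AP20187. All mice were FVB/N females at 4 weeks of age with the genotype MMTV-Wnt1 / MMTV-iFgfr1, and mammary glands 3 to 5 were taken 6 h after an intraperitoneal injection. Both transgenes are driven by MMTV, a viral promoter active mainly in mammary epithelium, so the vehicle mice carry the Wnt1 and iFGFR1 transgenes too. iFGFR1 is an FGF receptor 1 that AP20187, a dimerizing compound, switches on. No group that received AP20187 without iFGFR1 was analysed here, so what the receptor did and what the compound did by any other route cannot be told apart. Glands were digested with collagenase in the presence of cycloheximide, a blocker of ribosome movement, and epithelium was enriched by brief spins with no sort. Whether a library is 1 mouse or a pool is not given in the sources used here, so each p-value reflects only how far these samples differ among themselves, in part perhaps for technical reasons.

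FGFR1 is a receptor tyrosine kinase, and its dimerization starts kinase cascades such as ERK and PI3K that act on transcription, metabolism and the translation machinery. In the mammary gland FGF signals drive duct outgrowth and the growth of epithelial progenitors, and WNT1 expands those progenitors. Ribosome profiling sequences the short mRNA fragments covered by ribosomes. The footprint count of a gene thus follows both the amount of its mRNA and the number of ribosomes on each mRNA, and the RNA libraries of the same cell pellets serve to set the 2 apart.

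Footprint totals over the listed genes were 1867702, 1772969 and 4007613 counts in vehicle libraries 1 to 3 and 11018709, 3042199 and 3769368 in AP20187 libraries 1 to 3. Levels are given as CPM, counts scaled to a common library total with factors from the TMM method, and changes as log2 fold changes of AP20187 over vehicle with their standard error (SE). Replicate libraries correlated at 0.864 to 0.961 (Pearson r on the log2 scale, computed over genes, which are no independent replicates). A library's 3 counts, taken as the floor of detection, correspond to 0.272 to 1.69 CPM before scaling, and such floors cover counting error only. Epcam, Krt18 and Krt14, which mark epithelium and its luminal and basal layers, were counted in all 6 libraries. Each library had a count for 7020 to 7310 of the listed genes, so this does not test whether epithelium was enriched. Fibroblast, endothelial, adipocyte, Schwann cell and mast cell genes were counted as well, so the libraries hold other cells.

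Regulatory sequence bears on 3 of the gene groups below, some of whose members are textbook targets of a shared promoter element. For each, the member that holds the element and had the smallest p in footprints is shown, as 250 bases of promoter up to the RefSeq start of the gene (GRCm38.p6, plus strand, 5′ to 3′, with the element in capitals). Creld2 stands for endoplasmic reticulum (ER) stress genes, Igtp for interferon-stimulated genes and Aars for genes of the amino acid response. In Creld2 (chr15:88819396-88819645) and Aars (chr8:111033592-111033841) the element lies on the other strand, so the capitals are its reverse complement. Igtp lies at chr11:58199306-58199555.
Creld2: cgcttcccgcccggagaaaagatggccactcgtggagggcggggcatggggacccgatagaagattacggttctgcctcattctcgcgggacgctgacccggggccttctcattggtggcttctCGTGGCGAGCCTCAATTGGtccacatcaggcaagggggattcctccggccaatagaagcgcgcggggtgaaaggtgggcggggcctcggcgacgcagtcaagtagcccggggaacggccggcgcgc
Igtp: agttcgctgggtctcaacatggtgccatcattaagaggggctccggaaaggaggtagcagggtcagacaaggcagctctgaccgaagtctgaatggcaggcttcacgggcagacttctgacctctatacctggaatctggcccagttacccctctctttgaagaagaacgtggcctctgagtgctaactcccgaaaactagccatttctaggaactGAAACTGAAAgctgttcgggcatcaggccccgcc
Aars: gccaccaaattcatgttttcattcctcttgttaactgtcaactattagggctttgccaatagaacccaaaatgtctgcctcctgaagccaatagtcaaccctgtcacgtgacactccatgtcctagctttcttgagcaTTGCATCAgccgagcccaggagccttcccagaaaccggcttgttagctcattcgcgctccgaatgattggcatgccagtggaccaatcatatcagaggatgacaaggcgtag

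The elements were searched on both strands from 250 bases before to 50 bases after the start of 5675 listed genes with a RefSeq entry, and matches of different elements overlapped in 0 promoters. Promoters of a single chromosome were left out of the search and of the counts below. The ER stress response element, searched as CCAAT and CCACG with 9 free bases between them, was found in 11 of the 5675 promoters (0.194%) and in 7 of 19 ER chaperone genes. The core of the interferon-stimulated response element, searched as a pair of GAAA runs with 2 free bases between them, was in 196 promoters (3.45%) and in 16 of 27 interferon-stimulated genes. The amino acid response element, searched as TGATGCAA, was in 39 promoters (0.687%) and in 4 of 14 cytosolic tRNA synthetase genes. A match describes the letters in this window and is not evidence of a bound factor. Among interferon-stimulated genes, the 16 with the element had a median footprint change of 1.38 and the 11 without it 0.83. Their ranges overlapped widely, at 0.03 to 5.19 and -0.12 to 3.25. In the 2 fits described below, 3 of the 16 and 0 of the 11 rose without a replicate block, and 7 and 6 with it. The difference between the medians was not tested. Among the synthetases the 4 with the element had a median of 0.82 and the 10 without it 0.41. Among ER chaperones the medians were alike, 0.52 in 7 genes and 0.50 in 12.

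Of 7041 genes with enough footprints for a test, 66 rose with AP20187 (0.937% of the genes tested) and 113 fell (1.6%) at an adjusted p under 0.05 with the quasi-likelihood test of edgeR. The other 277 listed genes were too low to test. The rises spanned 1.01 to 5.19 on the log2 scale with a median of 1.63, the falls -1.09 to -4.53 with a median of -2.01, and the median over all tested genes was 0.03. The 66 genes took 1.19%, 1.03% and 0.751% of all counted footprints in the vehicle libraries and 4.28%, 3.22% and 3.25% in the AP20187 libraries. For the 113 genes the shares were 4.77%, 5.04% and 7.89% with vehicle and 1.49%, 1.92% and 1.14% with AP20187. Those shares describe the same values that made the calls. In each of the 179 genes no AP20187 value fell within the range of the vehicle values, which was so for 23.2% of all tested genes.

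Footprint libraries that carry the same replicate number varied together, so a second fit took the number as a block. With that block 353 genes rose (5.01%) and 362 fell (5.14%), among them all 66 and all 113 of the first fit. Without the libraries numbered 1 (pair 1) the blocked counts were 119 and 162. Below, "with the block" marks counts of this second fit. The unblocked calls rest on few libraries: without vehicle library 1 or without vehicle library 2 edgeR called 0 genes, with 1116 and 1091 genes at an unadjusted p under 0.05 and smallest adjusted p-values of 0.0556 and 0.0586. Without vehicle library 3 the calls were Klk10, S100a8 and Acsl4, and without AP20187 library 1 they were Klk10 and S100a8. Each of the 179 genes kept its sign in every one of these fits that tested it.

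**Figure D1:**
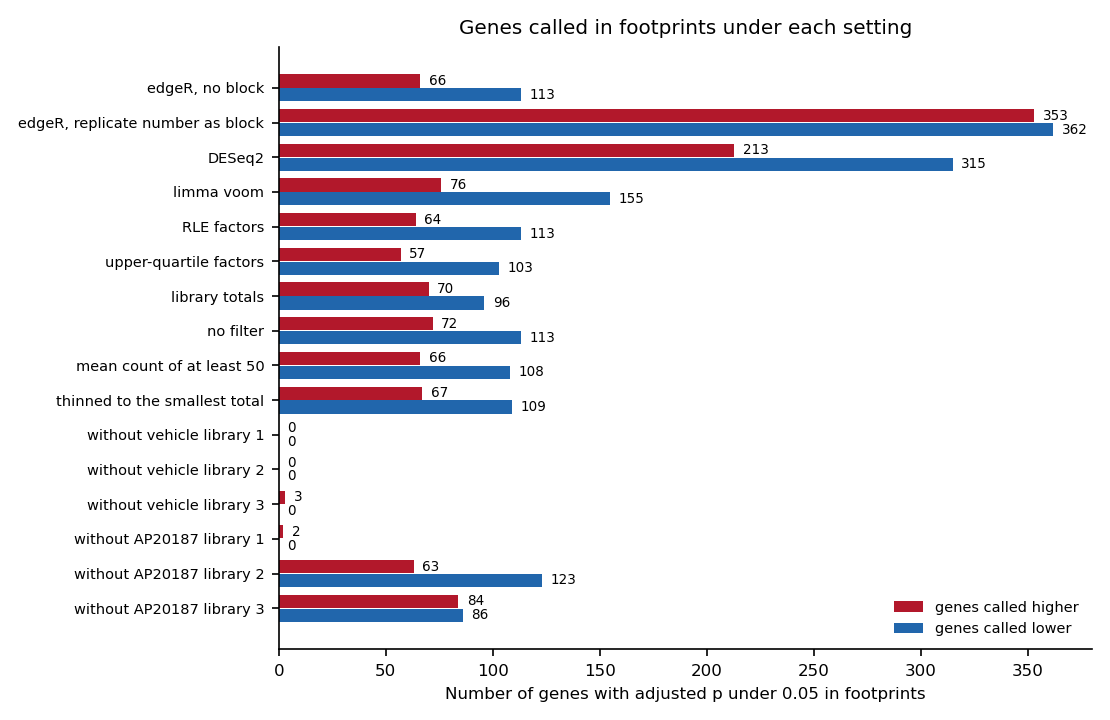
Number of genes called higher (red) and lower (blue) in footprints (adjusted p under 0.05) under each test, scaling, filter and left-out library. The block gives 353 and 362 genes, and leaving out vehicle library 1 or 2 gives 0.

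The receptor itself and a gene that FGF signals induce were among the rises. Fgfr1, whose counts can include the transgene, stood at 318, 328 and 198 CPM in the vehicle libraries against 847, 1636 and 792 CPM after AP20187. The groups did not overlap, and the rise was 1.96 ± 0.36 (SE; adjusted p = 0.0237). Phlda1, a pleckstrin-domain gene induced by FGF and ERK signalling, stood at 1333, 1117 and 1093 CPM in the vehicle libraries against 4651, 2893 and 5254 CPM after AP20187, also with no overlap, a rise of 1.85 ± 0.30 (adjusted p = 0.0202). Wnt1, whose counts can likewise include its transgene, was at 192, 175 and 46.3 CPM in the vehicle libraries against 492, 539 and 382 CPM after AP20187. Its 3 AP20187 values lay above the vehicle values, and the change of 1.78 ± 0.45 passed with the block (adjusted p = 0.000768) but not without it (adjusted p = 0.0659). The list of FGF and ERK response genes holds 31 genes, of which only 5 were among the genes the authors listed. Of these 5, all tested, Phlda1 alone rose, and with the block also Sh3bp4, a gene of endocytic trafficking, at 1.29. Among 15 FGF ligands, receptors and adaptors Fgfr1 alone rose. With the block Fkbp1a, the gene of the protein from which AP20187-binding domains are derived, and the syndecan gene Sdc1, whose sugar chains bind FGFs, passed too, at 1.04 and 0.93, and when pair 1 was also left out 1 gene of the list rose. Fgf1, a ligand gene, was at 23, 6.00 and 14.7 CPM in the vehicle libraries against 2.16, 1.84 and 2.66 CPM after AP20187, and its change of -2.70 did not pass with edgeR (adjusted p = 0.0772, and 0.0668 with the block) but passed with DESeq2 (adjusted p = 0.00324). Of 11 WNT pathway genes 0 rose with edgeR (1 at an unadjusted p under 0.05, which is Wnt1, also called by DESeq2 and limma voom), and Procr, the protein C receptor gene of endothelial and some basal cells, fell, at -2.25. The genes lie on chromosome 8, 25513654 to 25575718 (Fgfr1), chromosome 10, 111506286 to 111508645 (Phlda1) and chromosome 15, 98789857 to 98793837 (Wnt1) (GRCm38, GENCODE M21, here and below, whole gene).

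Among genes whose 6 libraries averaged 20 CPM or more, the 12 largest rises held a protease, a nucleoside carrier, a fatty acid ligase and genes of epithelial defence. Klk10, a secreted serine protease of the kallikrein family (chromosome 7, 43781035 to 43785410), stood at 31.2, 34.9 and 10.2 CPM in the vehicle libraries against 559.6, 439.9 and 479.8 CPM after AP20187. No library of either group came near the other group, and the rise of 4.31 ± 0.44 had the joint smallest adjusted p, 0.00566. Slc28a3, which carries nucleosides into cells with sodium (chromosome 13, 58545399 to 58610877), was at 159, 134 and 81.4 CPM in the vehicle libraries against 1185, 436 and 1436 CPM after AP20187, a rise of 3.03 ± 0.45 (adjusted p = 0.0193). Acsl4, the ligase that activates arachidonic acid for lipid synthesis (chromosome X, 142317993 to 142390535), was at 164, 167 and 51.6 CPM in the vehicle libraries against 1116, 1213 and 691 CPM after AP20187, a rise of 2.99 ± 0.45. S100a8, a calcium-binding alarm protein of neutrophils and inflamed epithelium, was at 17.5, 17.5 and 17.5 CPM in the vehicle libraries against 146, 88.6 and 144 CPM after AP20187. Its vehicle values were nearly identical and its rise was 2.85 ± 0.30 (adjusted p = 0.00566). The remaining genes of the 12 were Igtp at 2.89, the Rac inhibitor Chn2 at 2.88, Spp1 at 2.57, the glutaredoxin Glrx at 2.48, Cldn1 at 2.45, Ltf at 2.40, Sowahb at 2.37 and the guanine deaminase Gda at 2.30.

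**Figure D2:**
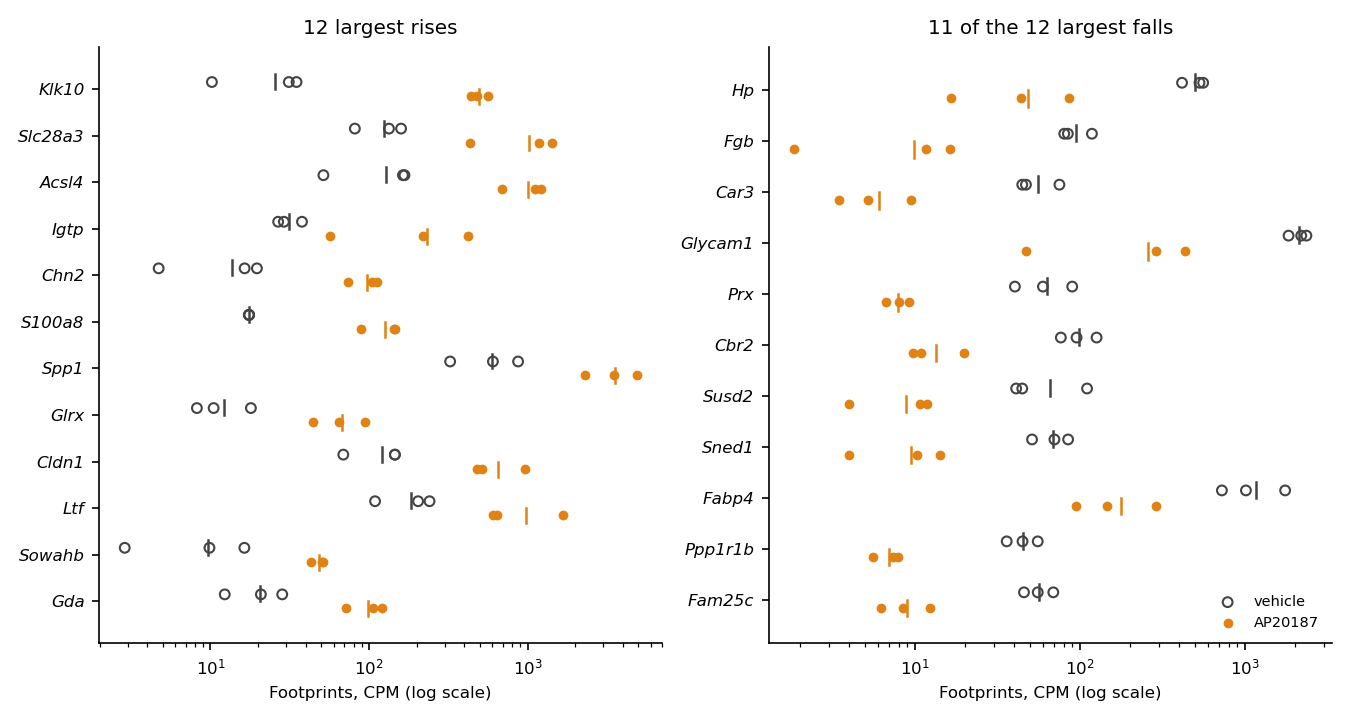
Footprint CPM (log axis) in each vehicle library (open circles) and AP20187 library (filled circles) for the 12 largest called rises and for 11 of the 12 largest called falls (average over 20 CPM). Vertical ticks are group means, and in each gene shown the groups do not overlap.

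Several secreted and iron-binding proteins of the luminal epithelium rose. Trf, the iron carrier transferrin (chromosome 9, 103204001 to 103230444), stood at 4809, 2856 and 2327 CPM in the vehicle libraries against 14864, 7570.2 and 9355 CPM after AP20187, a rise of 1.67 ± 0.36 (adjusted p = 0.0401). Spp1, the secreted matrix and milk protein osteopontin (chromosome 5, 104435118 to 104441050), stood at 872, 605 and 325 CPM in the vehicle libraries against 4884, 3516 and 2319 CPM after AP20187, and Ltf, the milk iron binder lactoferrin, at 241, 204 and 109 CPM in the vehicle libraries against 1678, 639 and 605 CPM after AP20187. In all 3 genes the lowest AP20187 value was above the highest vehicle value. Of 14 tested iron genes Ltf and Trf rose and the ferrireductase Steap4 fell (-1.62), and with the block 6 rose (2 when pair 1 was also left out), among them Lcn2 at 1.2 and the transferrin receptor Tfrc. Of 12 milk genes 3 rose, namely Spp1, Xdh and Folr1, and Glycam1 fell. Xdh, which makes uric acid and is a protein of the milk fat globule, was at 218, 291 and 234 CPM in the vehicle libraries against 1159.7, 688 and 569.5 CPM after AP20187, and Folr1, a folate receptor, went from 63.6 ± 23.4 to 184 ± 31.5 CPM (SD, n = 3). With the block 6 milk genes rose, the casein Csn3, the water channel Aqp5 and the lipid droplet gene Plin2 among them. The luminal progenitor list had 4 rises in 12 tested genes (9 with the block) and a median of 1.28, the highest of any list with at least 5 tested genes. Of the 12, 10 had a change above 0 and 2 below, the lowest at -1.01, with 1 fall at an unadjusted p under 0.05 in edgeR's test. The rises of the list were Sox10, Ltf, Folr1 and Trf. Ltf and Trf are also in the iron list and Folr1 is in the milk list. Sox10, a transcription factor of mammary stem and progenitor cells and of Schwann cells, stood at 293, 342 and 149.5 CPM in the vehicle libraries against 851, 955 and 851 CPM after AP20187, a rise of 1.76 ± 0.33. The luminal progenitor list's share of all counted footprints was 1.78%, 1.13% and 0.696% in the vehicle libraries against 5.26%, 3.16% and 2.40% after AP20187. Trf, whose CPM is given above, is part of this share. The share of fibroblast genes was lower in the same AP20187 libraries, at 1.29%, 1.62% and 3.41% in the vehicle libraries against 0.417%, 0.585% and 0.347% after AP20187, and its part in these rises was not tested. In bulk libraries a gain in cells of a type and a gain in mRNA or footprints per cell cannot be told apart.

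Carriers and enzymes that handle nucleosides, sugars and amino acids rose as single genes across several families. Of 87 tested solute carriers, a family picked out after the values were seen, 4 rose and 0 fell (10 and 1 with the block), with a median of 0.21. Beside Slc28a3 these were Slc29a1, a nucleoside channel, Slc7a5, the large neutral amino acid exchanger, and Slc27a4, a fatty acid transporter. Slc29a1 stood at 175, 144 and 175 CPM in the vehicle libraries against 493, 607 and 350.2 CPM after AP20187, a rise of 1.55 ± 0.28, and Slc7a5 at 230.0, 285 and 277 CPM in the vehicle libraries against 704, 549 and 681 CPM after AP20187, a rise of 1.29 ± 0.25. In both the groups were well apart. Among 32 genes of nucleotide sugar and O-glycan synthesis, also picked out afterwards, 4 rose and 1 fell (10 and 2 with the block). Among those that rose, Nans makes sialic acid, Cmas activates it and Galnt3 starts O-linked sugar chains, and their changes were 1.40, 1.49 and 1.43. Cmas stood at 79.9, 93.8 and 93.5 CPM in the vehicle libraries against 203, 174 and 374 CPM after AP20187, with library 3 of AP20187 the highest. The gene that fell, Gfpt2, makes glucosamine phosphate and is known from mesenchymal cells. It stood at 125, 116 and 139 CPM in the vehicle libraries against 31.2, 36.8 and 17.0 CPM after AP20187. The alanine transaminase Gpt2 rose by 1.31 and the aminopeptidase Lap3 by 1.14. Lap3, Slc29a1 and the other called genes outside the lists were picked after their values were seen. Of the called genes 44 of the 66 rises and 66 of the 113 falls were in none of the 60 lists.

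Genes of lipid synthesis rose in small number. Of 15 sterol genes 2 rose (3 with the block): Msmo1, a demethylase of sterol synthesis, at 1.57, and Lss, which closes the sterol ring, at 1.5. Msmo1 stood at 46.5, 34.9 and 40.8 CPM in the vehicle libraries against 113, 128 and 122 CPM after AP20187, with tight values in both groups. Of 22 genes of fatty acid and triglyceride synthesis Acsl4 alone rose, and with the block also Thrsp, Scd2, Fasn, Acly and Scd1 (3 in all when pair 1 was also left out). Fasn, the fatty acid synthase, stood at 435, 506 and 302 CPM in the vehicle libraries against 776, 980.3 and 617 CPM after AP20187. Its groups did not overlap, and its change of 0.93 passed with the block (adjusted p = 0.00843) and not without it (adjusted p = 0.132). The list's share of footprints was 0.252%, 0.279% and 0.178% in the vehicle libraries against 0.501%, 0.600% and 0.343% after AP20187. The lipid transfer gene Stard5 and the ethanolamine kinase Etnk1, in none of the lists, rose by 2.13 and 1.01.

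The machinery that charges tRNAs and folds secreted proteins had changes mostly above 0, with few single calls. All 22 cytosolic tRNA synthetases had a change above 0, from 0.17 to 1.14, with a median of 0.49. Aars, the alanyl-tRNA synthetase whose promoter is shown above, stood at 159, 183 and 135 CPM in the vehicle libraries against 374, 344 and 333 CPM after AP20187 and was the member that rose (1.14 ± 0.24, adjusted p = 0.0375). With the block 9 rose, Lars at 1.05 and Wars at 1.06 among them, and when pair 1 was also left out 1 rose. The synthetases made up, of counted footprints, 0.369%, 0.402% and 0.387% in the vehicle libraries against 0.553%, 0.581% and 0.604% after AP20187. Of 25 ER chaperones and disulfide isomerases 2 rose (7 with the block, 2 when pair 1 was also left out), with a median of 0.52 and 19 above 0. Sdf2l1, an ER chaperone cofactor, stood at 71.7, 60.0 and 40.3 CPM in the vehicle libraries against 203, 133 and 255 CPM after AP20187, a rise of 1.79 ± 0.32. Creld2, an ER protein induced by unfolded proteins, stood at 60.2, 43.6 and 57.6 CPM in the vehicle libraries against 222, 112 and 121 CPM after AP20187, a rise of 1.49 ± 0.32 (adjusted p = 0.0388), and AP20187 library 1 was the highest. With the block the chaperones Hyou1 at 1.14 and Hsp90b1, the isomerases Pdia4 at 1.03 and P4hb, and the secreted ER factor Manf passed too. The list made up, of counted footprints, 1.15%, 1.02% and 1.31% in the vehicle libraries against 1.91%, 1.37% and 1.87% after AP20187. In ER translocation 0 of 22 genes passed with edgeR (6 at an unadjusted p under 0.05, 2 with DESeq2, 0 with limma voom), and 3 rose with the block, among them the channel gene Sec61a1 at 1.04. Of 14 genes of ER-associated degradation and the unfolded protein response 0 passed (5 at an unadjusted p under 0.05, and 0 by DESeq2 or limma voom), and 4 rose with the block, Herpud1 and Sel1l among them. For these 4 groups the shares of the AP20187 libraries lay above those of all vehicle libraries. With 3 libraries against 3 the smallest p an exact 2-sided permutation test can give is 0.1, so no such share can pass the threshold alone.

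Interferon-stimulated genes were higher, and mostly so in AP20187 library 1. Of 35 tested genes 3 rose, Igtp, Oas3 and Gbp2, and 34 had a change above 0, with a median of 1.17. Igtp, an interferon-induced GTPase of vacuole defence, stood at 37.8, 26.7 and 29.1 CPM in the vehicle libraries against 419, 218 and 56.6 CPM after AP20187, and Gbp2, a guanylate-binding protein, at 72.8, 70.9 and 79.9 CPM in the vehicle libraries against 556, 193 and 144 CPM after AP20187. Oas3, a sensor of double-stranded RNA, had 0, 3.27 and 0 CPM in the vehicle libraries against 71.5, 15 and 13.0 CPM after AP20187. Its vehicle libraries 1 and 3 were at 0, so its fitted change of 5.19 depends on the model. In each of the 3 genes library 1 of AP20187 held the highest value by a wide margin. The list made up, of counted footprints, 0.287%, 0.228% and 0.249% in the vehicle libraries against 0.841%, 0.377% and 0.297% after AP20187. With the block 17 rose, among them Irgm1, Oasl2 and Bst2, and limma voom called 0 of the 35. None of them was among the 2 genes that edgeR called without AP20187 library 1, and without AP20187 library 3 it called 8 of them. With the block and without the pair of libraries numbered 1, 3 of them rose. Of 15 genes of MHC class I presentation 0 passed with edgeR (3 at an unadjusted p under 0.05, 2 with DESeq2, 0 with limma voom). With the block 4 rose, the proteasome subunits Psmb8 and Psmb9 and the peptide transporter Tap1 among them.

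Genes of cell junctions, polarity and epithelial adhesion gave further rises. Cldn1, a tight junction protein (chromosome 16, 26356642 to 26371841), stood at 146, 146 and 68.9 CPM in the vehicle libraries against 959, 482 and 517 CPM after AP20187, a rise of 2.45 ± 0.39 (adjusted p = 0.0193). It was the 1 of 28 junction genes that rose, and with the block Cldn7, Epcam and Dsg2 were among 5 rises (1 when pair 1 was also left out). Itgb4, the integrin of hemidesmosomes, stood at 157, 119 and 152 CPM in the vehicle libraries against 401, 268 and 296 CPM after AP20187, a rise of 1.17 ± 0.26 while 5 genes of the same basement membrane list fell. Llgl2 and Celsr2, which set apical-basal and planar polarity, rose by 1.34 and 1.35. The adhesion and cytoskeleton genes Tns4, Fblim1 and Myo10 rose by 1.25, 1.42 and 1.34. Signalling genes among the rises were Il1rap, a subunit of interleukin 1 receptors, at 1.59, Deptor, an inhibitor of mTOR, at 1.55, Stk39, a kinase of ion transport, at 1.64 and Dgkd, a diacylglycerol kinase, at 1.88. Deptor stood at 17.5, 18.0 and 14.1 CPM in the vehicle libraries against 38.4, 55.8 and 51.0 CPM after AP20187. In these 4 signalling genes, too, the groups did not overlap.

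Among the falls, fibrillar and interstitial matrix was the list with the most calls without the block (9, against 5 for basement membrane and integrins), while with the block the order was 12 against 13. Col1a1, a chain of type I collagen (chromosome 11, 94936224 to 94953042), stood at 5936, 7014 and 17683 CPM in the vehicle libraries against 2037, 2107 and 1836 CPM after AP20187, and Col1a2, the other chain (chromosome 6, 4504814 to 4541544), at 3253, 4219.7 and 9265 CPM in the vehicle libraries against 1207, 1476 and 964 CPM after AP20187. Both had their highest value in vehicle library 3, and their changes were -2.36 ± 0.41 and -2.20 ± 0.40 (adjusted p = 0.021 and 0.0237). Dcn, the collagen-binding proteoglycan decorin, stood at 1185, 1163 and 1829.7 CPM in the vehicle libraries against 178, 437 and 72.5 CPM after AP20187. Of 14 fibrillar and interstitial matrix genes 9 fell (12 with the block), all 14 had a change below 0, and the median was -1.85. The other 6 that fell were Col14a1, Emilin1, Fn1, Col6a1, Col6a2 and Col6a3. Among 15 collagen chains 8 fell and 1 rose (10 and 1 with the block), a family picked out after the values were seen. The chain that rose was Col9a1, known from cartilage and epithelia, at 83.2, 72.5 and 46.3 CPM in the vehicle libraries against 233, 196 and 223 CPM after AP20187, a rise of 1.70 ± 0.28. The collagen chains made up, of counted footprints, 1.30%, 1.71% and 3.35% in the vehicle libraries against 0.542%, 0.703% and 0.490% after AP20187. Of the 9 tested genes that hydroxylate and crosslink collagen P4ha2, a prolyl hydroxylase subunit, fell (-1.65), and 5 fell with the block (1 when pair 1 was also left out).

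Some basement membrane genes fell as well. Of 27 basement membrane and integrin genes 5 fell and 1 rose (13 and 1 with the block), with a median of -0.93. The falls were the laminin chains Lama1, Lama2, Lama3 and Lamb1 and the proteoglycan perlecan, Hspg2. Lama1 stood at 514, 492 and 659 CPM in the vehicle libraries against 164, 213 and 87.1 CPM after AP20187, a change of -1.84 ± 0.34, and Hspg2 at 1206, 1569.6 and 2405 CPM in the vehicle libraries against 651, 714 and 362 CPM after AP20187, a change of -1.58 ± 0.36. With Lamc3, in none of the lists, 5 of 11 laminin chains fell (7 with the block), and Col7a1, the anchoring fibril collagen of epithelial basement membranes, fell too, at -1.34. Without AP20187 library 3 the 5 falls of the list became 3, and without AP20187 library 2 they became 6.

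By share of counted footprints, marker lists of fibroblasts, endothelium, adipocytes and mast cells were lower in the AP20187 libraries. The share of the Schwann cell list overlapped between groups, though 6 of its 7 tested genes had a change below 0. The share of the macrophage list was higher, though 3 of its 5 tested genes had a change below 0. Of 11 fibroblast genes 6 fell and 0 rose with edgeR (10 and 0 with the block; 0 rises at an unadjusted p under 0.05 and with the other tools), with a median of -2.07. Their shares are given above with the luminal progenitor genes. Of the 6 falls 5 are also in the matrix list, and the other one was Gsn, the actin-severing protein gelsolin, at 1279, 1469.8 and 4301 CPM in the vehicle libraries against 337, 544 and 271 CPM after AP20187. Of 6 endothelial genes Vwf, Aqp1 and Esam fell (all 6 with the block, 2 when pair 1 was also left out), and the list took 0.139%, 0.110% and 0.150% in the vehicle libraries against 0.0493%, 0.0750% and 0.0340% after AP20187. Vwf, the clotting carrier of endothelium, stood at 215, 129 and 262 CPM in the vehicle libraries against 61.9, 51.8 and 33.7 CPM after AP20187, and Selp, the P-selectin of activated endothelium and platelets, at 562, 412 and 1045 CPM in the vehicle libraries against 182, 132 and 130.1 CPM after AP20187. The adipocyte genes Car3 and Fabp4 fell in a list of 7 tested, of which 5 had a change below 0 and 2 above. The 8 listed adipocyte genes made up 0.132%, 0.111% and 0.208% in the vehicle libraries against 0.0405%, 0.0580% and 0.0201% after AP20187. Adipoq, a defining marker, was at 0 in at least 1 library. Fabp4, the fatty acid carrier of fat cells, stood at 1015, 726 and 1755 CPM in the vehicle libraries against 146, 289 and 94.8 CPM after AP20187. Of 7 Schwann cell genes 3 fell, Prx among them, and Sox10 rose, and Mag and S100b were at 0 in at least 1 library. This list, Sox10 included, made up 0.110%, 0.110% and 0.110% in the vehicle libraries against 0.0993%, 0.123% and 0.0931% after AP20187. Its median change was -1.94, and 5 of the 7 genes were lower with no overlap. Sox10, also in the luminal progenitor list, was the 1 gene above 0 and went from a mean of 261 to 886 CPM. Prx, a scaffold protein of myelin, stood at 59.7, 40.4 and 89.8 CPM in the vehicle libraries against 9.20, 7.98 and 6.64 CPM after AP20187, a change of -2.99 ± 0.40. In the mast cell list Cpa3 and Mcpt4, both proteases of mast cell granules, fell in 3 tested genes. The 4 listed genes, tested or not, made up 0.00428%, 0.00564% and 0.00811% in the vehicle libraries against 0.000354%, 0.000756% and 0.0000796% after AP20187. Cpa3 had 17.5, 21.3 and 34.0 CPM in the vehicle libraries against 0.845, 2.45 and 0 CPM after AP20187, at or near the floor with AP20187. Of 5 macrophage genes 0 passed with edgeR (1 rise at an unadjusted p under 0.05, 1 with DESeq2, 0 with limma voom), and Cd14 rose with the block. The median change of the 5 was -0.05, and Cd14 is also in the luminal progenitor list. The macrophage list made up 0.118%, 0.108% and 0.0775% in the vehicle libraries against 0.235%, 0.147% and 0.182% after AP20187, with no overlap, while Siglec1, a macrophage adhesion receptor outside the list, fell (-2.44). The part of these lists in the falls of matrix, basement membrane and other genes was not tested.

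Falls also covered genes of epithelial layers. Of 22 tested keratins 6 fell and 0 rose (8 and 0 with the block), a family grouped after the values were seen. Of the 22, 16 had a change below 0 and 6 above. The keratin share of footprints overlapped, at 0.867%, 0.906% and 0.754% in the vehicle libraries against 0.738%, 0.735% and 0.905% after AP20187. Krt19, a keratin of simple and luminal epithelium, stood at 1721, 2211 and 1614 CPM in the vehicle libraries against 767, 758 and 728 CPM after AP20187. Krt7, another such keratin, stood at 524, 565 and 694 CPM in the vehicle libraries against 252, 158 and 92.4 CPM after AP20187. Neither had an overlap between groups. Krt19 was the 1 fall among 9 luminal genes, of which 7 had a change above 0, with a median of 0.75, and Gata3, Cldn7 and Epcam rose with the block. The luminal list made up 0.881%, 0.736% and 0.610% in the vehicle libraries against 1.14%, 0.850% and 1.04% after AP20187, with an overlap. Krt23 and Krt80 changed by -2.13 and -2.16, and Krt4 and Krt1, of stratified epithelium, by -3.23 and -3.75. Krt14, a keratin of basal cells, went from 1119 ± 105 to 689 ± 107 CPM (SD, n = 3), a change of -0.70 that passed with the block (adjusted p = 0.0448) in edgeR's test. Lgals3, a galactose-binding lectin (899, 654 and 889 CPM in the vehicle libraries against 225, 205 and 94.8 CPM after AP20187), fell (-2.22), and Ly6d, a surface marker of lineage-restricted luminal and other cells (1443, 1023 and 1487 CPM in the vehicle libraries against 312, 279 and 87.9 CPM after AP20187), fell as well (-2.54). In the hormone-sensing luminal list Krt19 and S100a6 fell in 6 tested genes, of which 3 had a change above 0. With the block the progesterone receptor Pgr fell too, and the luminal factor Gata3, at 1.08, and Prom1 rose. Of 18 contractile genes of smooth muscle and myoepithelium 3 fell (11 with the block, 4 when pair 1 was also left out), Mylk, Myl9 and Fhl1, and Acta2, the smooth muscle actin, was at 1770.1, 1357 and 958 CPM in the vehicle libraries against 384, 814 and 319.9 CPM after AP20187, a change of -1.43 that passed with the block (adjusted p = 0.00284). Of the contractile genes 1 fell without AP20187 library 3 and 5 without AP20187 library 2. Their share overlapped, at 0.687%, 0.702% and 0.564% in the vehicle libraries against 0.353%, 0.571% and 0.349% after AP20187.

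**Figure D3:**
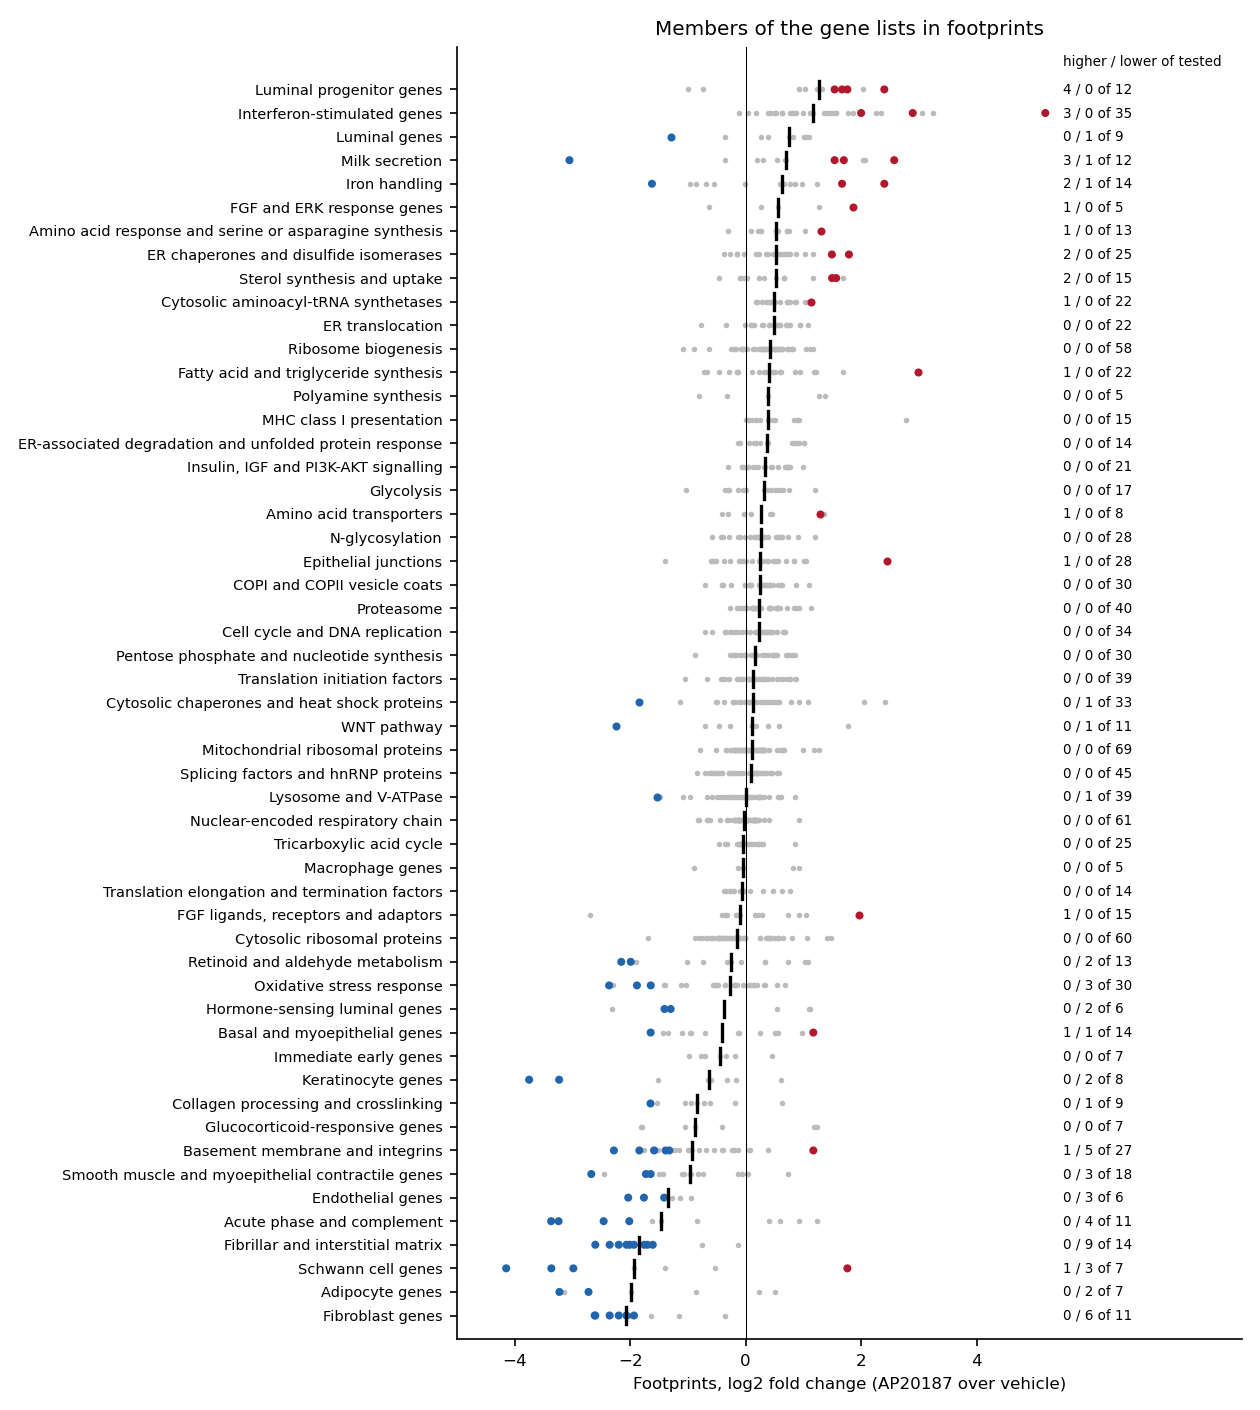
Footprint log2 fold change of each tested member (points) of the gene lists with at least 5 tested members, with the list's median (black tick). Red and blue points passed the threshold, the right-hand column counts them, and matrix and stromal lists lie at the bottom, luminal progenitor genes at the top.

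Plasma proteins, detoxifying enzymes and adhesion genes of inflammation were further falls. Hp, the haemoglobin binder haptoglobin (chromosome 8, 109575128 to 109579172), stood at 531, 416 and 559 CPM in the vehicle libraries against 43.8, 85.9 and 16.5 CPM after AP20187, a change of -3.37 ± 0.50 (adjusted p = 0.0193), and the fibrinogen chain Fgg at 846, 783 and 1159.6 CPM in the vehicle libraries against 244, 277 and 169 CPM after AP20187. With Fgb and C3, the central complement protein, 4 of 11 acute phase and complement genes fell. With the block 6 fell, C4b and Serpina3n being added, and 2 rose, Lcn2 and Lbp. The list made up 0.869%, 0.696% and 0.728% in the vehicle libraries against 1.63%, 0.864% and 0.789% after AP20187, with an overlap and the highest value in AP20187 library 1. Glycam1, a mucin of milk and of lymph node vessels, stood at 2361, 1841 and 2197 CPM in the vehicle libraries against 289, 435 and 47.3 CPM after AP20187, a change of -3.05 ± 0.62 (adjusted p = 0.032). Icam1, an adhesion molecule that inflammation induces, stood at 3791, 2144 and 4729.9 CPM in the vehicle libraries against 1406, 831 and 1220.0 CPM after AP20187, a change of -1.63 ± 0.35. Of 30 oxidative stress genes 3 fell (4 with the block, 2 when pair 1 was also left out and 7 when pair 2 was), the quinone reductase Nqo1, the glutathione transferase Gsta4 and the secreted peroxidase Gpx3. The epoxide hydrolase Ephx1 and the carbonyl reductase Cbr2, outside the list, changed by -1.69 and -2.90, and Ephx1 stood at 154, 138 and 154 CPM in the vehicle libraries against 39.9, 60.4 and 38.2 CPM after AP20187. Dnajb1, a cofactor of heat shock protein 70, stood at 2887, 3237 and 4685 CPM in the vehicle libraries against 857, 1344 and 809 CPM after AP20187, a change of -1.84 ± 0.32, and was the 1 of 33 cytosolic chaperone genes that fell. Ulk1, the kinase that starts autophagy, fell (-1.09). Of 13 genes of retinoid and aldehyde metabolism the retinol transporter Stra6 and the retinoic acid-binding protein gene Crabp1 fell (-2.16 and -1.99). Of 39 lysosome and proton pump genes Gla, the alpha-galactosidase, fell (-1.53). Among the 12 largest falls were also Fgb (-3.24), Car3 (-3.23), the membrane protein gene Susd2 (-2.87), the matrix protein gene Sned1 (-2.86), the phosphatase inhibitor Ppp1r1b (-2.70) and Fam25c (-2.68).

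Several lists of core cell functions had no called member, though in some of them most changes were above 0. A lack of calls does not show a lack of change, since in simulated counts 15 of 100 2-fold changes were called. Of 60 tested ribosomal protein genes 0 passed with edgeR (2 falls at an unadjusted p under 0.05, 0 with DESeq2, limma voom and the block), with a median of -0.15. The 78 listed ribosomal protein genes had a share of 1.59%, 1.58% and 1.43% in the vehicle libraries against 1.32%, 1.28% and 1.53% after AP20187. Several of them, Rpl10 and Rps6 among them, were listed at 0 in at least 1 library, and many have near-identical copies, so their counts are uncertain. Of 61 nuclear-encoded respiratory chain genes 0 passed (3 falls at an unadjusted p under 0.05, and 0 by DESeq2 or limma voom), and Ndufa7, a complex I subunit, passed with the block at -0.79. Of 39 initiation factors 0 passed (5 rises at an unadjusted p under 0.05, 3 with DESeq2, 0 with limma voom), and 4 rose with the block, among them the scaffolds Eif4g1 and Eif4g3. Their median was 0.13, with 27 above 0, and their share of footprints was higher with AP20187 with no overlap. Of 58 ribosome biogenesis genes 0 passed (11 rises and 1 fall at an unadjusted p under 0.05, 3 and 1 with DESeq2, 0 with limma voom), and with the block 7 rose and 2 fell. Their median was 0.42, with 45 above 0 and 13 below, and their share of footprints overlapped. In 20 of the 58 all AP20187 values lay above the vehicle values, which was so for 805 of all 7041 tested genes. Immediate early genes took 8.07%, 8.56% and 8.80% in the vehicle libraries against 5.65%, 5.78% and 5.55% after AP20187, with no overlap. Fos, a transcription factor subunit induced within minutes by many stimuli, stood at 34027, 30028 and 38143 CPM in the vehicle libraries against 19755, 20191 and 19539.5 CPM after AP20187, a change of -0.78 that passed with the block (adjusted p = 0.028) and not without it (adjusted p = 0.125). Of the 7 tested immediate early genes 0 passed with edgeR (3 falls at an unadjusted p under 0.05, 2 with DESeq2, 1 with limma voom). Of 34 cell cycle and replication genes 0 passed (1 fall at an unadjusted p under 0.05, and 0 by DESeq2 or limma voom), and with the block Mki67, a protein of dividing cells, rose. Of 21 genes of insulin, IGF and PI3K-AKT signalling 0 passed (6 rises at an unadjusted p under 0.05, and 0 by DESeq2 or limma voom), and with the block Akt1, a kinase of the pathway, rose. The median of these 21 was 0.33, with 17 above 0, and their share was higher with AP20187 with no overlap. Of 69 mitochondrial ribosomal protein genes 0 passed (2 rises at an unadjusted p under 0.05, 0 with DESeq2, limma voom and the block). Of 40 proteasome genes 0 passed (6 rises at an unadjusted p under 0.05, 2 with DESeq2, 0 with limma voom), and 4 rose with the block. The proteasome median was 0.24, with 33 above 0, and the share was higher with AP20187 with no overlap.

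The RNA libraries of the same pellets moved the same way for nearly all called genes. In RNA 906 of 7314 tested genes rose (12.4%) and 1013 fell (13.9%). These counts were as low as 247 and 291 without vehicle RNA library 3, 307 and 410 without vehicle RNA library 1 and 388 and 394 without AP20187 RNA library 1, and with the block they were 620 and 661. Of the 66 footprint rises 60 rose in RNA and 65 had an RNA change above 0, and of the 113 falls 108 fell in RNA and 113 had an RNA change below 0. Over the 7041 genes the 2 changes had a Pearson r of 0.775, across genes, which are not independent replicates and share mice and cell pellets. Median changes were 1.63 in footprints and 1.59 in RNA for the rises, and -2.01 and -1.63 for the falls. These genes were chosen by their footprint change, so the medians cannot show in which assay the change was larger. Called genes that did not pass in RNA numbered 11: the rises Aak1, Apobr, Fndc3a, Folr1, Igsf3 and Rbm47 and the falls Dnajb1, Glycam1, Hspg2, Lama1 and Siglec1. Several of these had RNA changes of like size with adjusted p-values just above the threshold, for example Folr1 at 1.64 (adjusted p = 0.0643) and Glycam1 at -3.07 (adjusted p = 0.0581).

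**Figure D4:**
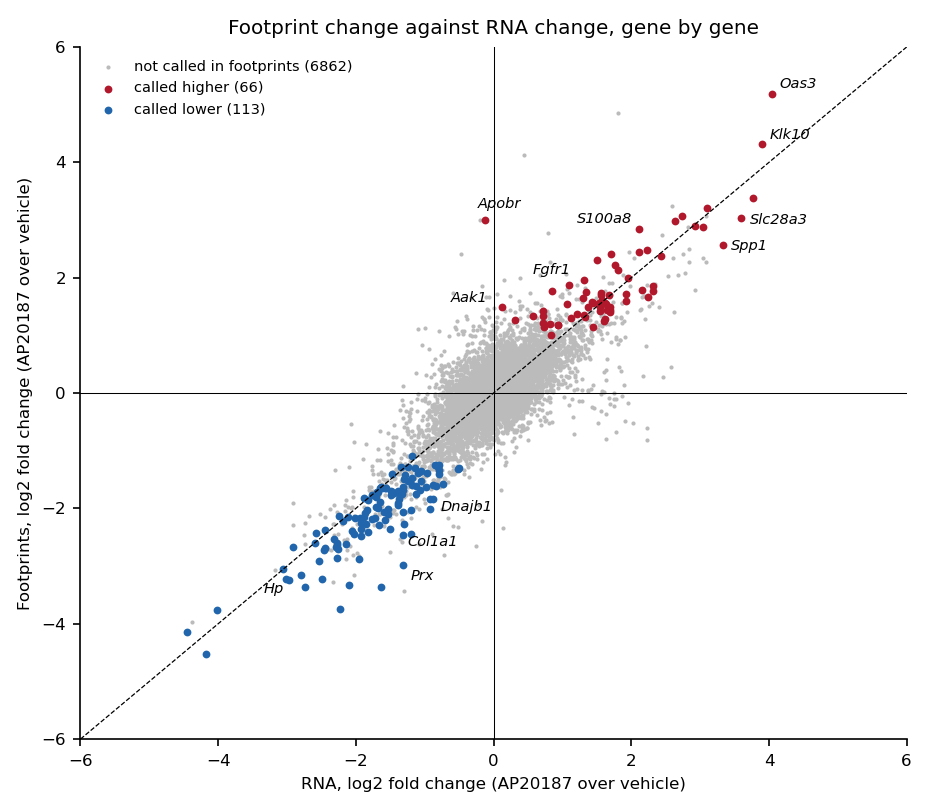
Log2 fold change of each gene in RNA (x axis) and in footprints (y axis), AP20187 over vehicle, with genes called higher in footprints in red and called lower in blue; the dashed line marks equal changes. Of the 66 red genes 65 lie right of 0 and all 113 blue genes lie left of 0.

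To ask whether footprints changed more or less than RNA, the interaction between assay and treatment was fitted over all 12 libraries. Of 7315 genes 0 passed with edgeR (350 at an unadjusted p under 0.05, smallest adjusted p 0.39) and 0 with limma voom, while DESeq2 called 10. Apobr, a receptor for lipoprotein remnants, headed the DESeq2 calls. It stood at 1.10, 5.45 and 2.09 CPM in the vehicle libraries against 25.4, 14.1 and 28.4 CPM after AP20187 in footprints, a rise of 3.00, against -0.13 in RNA, an interaction of 3.12 that did not pass with edgeR (adjusted p = 0.39). Aak1, a kinase of clathrin coats, stood at 19.7, 25.6 and 20.4 CPM in the vehicle libraries against 59.9, 71.2 and 52.8 CPM after AP20187, a rise of 1.48 against 0.13 in RNA, and the RNA-binding protein gene Rbm47 rose by 1.27 against 0.32. In the other direction Prx changed by -2.99 in footprints and -1.31 in RNA. Other DESeq2 calls with higher footprints relative to RNA included Stx16, Akap9, Brwd1, Ublcp1 and Rdh10, and those with lower were Lama4 and Hist1h2bf, a histone gene with near-identical copies. The smallest edgeR p-values were those of Ublcp1, Apobr, Polr2l, Stx16 and AI413582. Of these Ublcp1, Polr2l and AI413582 had 0 counts in all 3 vehicle footprint libraries and up to 5.26, 3.07 and 4.79 CPM with AP20187, so no fold is given. The median coding length was 1491 bases for the rises, 1410 for the falls and 1461 for all tested genes.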

How the data were processed

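The authors deposited raw counts per gene symbol for 6 RNA and 6 ribosome footprint libraries in a single table of 7318 genes, not normalized. The submitters' processing notes name mm10 and the tools HTSeq, STAR, Bowtie2, cutadapt and bcl2fastq 1.8.3. What each did, whether strand was used, which region was counted and why these genes were kept is not given in the sources used here, so totals are not full depths, and genes with near-identical copies or overlapping neighbours are uncertain. Libraries were grouped by the labels. Genes that passed filterByExpr entered a quasi-likelihood F test (edgeR 4.0.16, R 4.3.3) on TMM-scaled counts, AP20187 against vehicle, with 2-sided p-values adjusted over all tested genes by the Benjamini-Hochberg method (threshold 0.05). Changes are relative to the other genes. SE was derived from the F statistic. The footprint share of a list sums all its listed genes, tested or not.

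The numbers in the labels paired the footprint libraries: deviations from the group means correlated at 0.22, 0.28 and 0.41 between same-numbered libraries, each above 0.1, and the number was added as a block in a second fit. In RNA the correlations were 0.20, -0.06 and -0.05.

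Members and the 60 gene lists were chosen with earlier results of these data known, and the 8 gene families and the fits that leave out a pair were chosen after the values were seen. Genes named by rule were Fgfr1 and Wnt1, the 12 largest changes each way among called genes averaging 20 CPM or more whose groups do not overlap, the 10 largest differences in CPM each way, up to 4 members per list by smallest p, and the 5 smallest p-values of the interaction. Predicted genes, clones and pseudogenes were left out, 11 symbols that a spreadsheet had turned into dates were tested and not named, and other called genes named here were picked after their values were seen. Alternatives were DESeq2 1.42.0, limma 3.58.1 (voom), other scalings and filters, thinning to the smallest total, and each library left out. Some genes that entered the tests and counts are not reported here by name. The procedure was tested on simulated counts with 100 genes changed 2-fold and 100 changed 4-fold. Without the block 15 of the 2-fold and 84 of the 4-fold changes were called, with 10 false calls among 109. With the block 14 and 86 were called, with 12 false calls among 112. The simulated libraries were not paired by number.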

Additional observations from a re-analysis of the deposited data

How the results depend on the processing

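Genes higher in footprints numbered 66 with edgeR, 213 with DESeq2 and 353 with the replicate block, and genes lower numbered 113, 315 and 362. Leaving out 1 footprint library gave 0 to 84 higher and 0 to 123 lower genes. Blocked fits without pair 1, 2 or 3 gave 119, 393 and 385 higher and 162, 363 and 322 lower genes. Each rests on 2 pairs, so the spread is poorly estimated and a larger count is no firmer result. Their smallest adjusted p-values in edgeR's test were 0.000157, 3.94e-42 and 7.22e-40, against 6.01e-06 with all pairs. With limma voom, RLE or upper-quartile factors, library totals, no filter, a mean count of at least 50 or thinning to the smallest total the counts stayed within 1.5 times. In RNA, leaving out 1 library gave 247 to 1048 higher and 291 to 1166 lower genes, and the replicate block gave 661 lower and 620 higher. The interaction gave 0 genes with edgeR and with the replicate block, 10 with DESeq2, and 0 to 1 without single libraries (1 without footprint vehicle library 2). The cause of these differences was not tested, except that a left-out library also lowers the number of samples. Of 230 named genes with a footprint test 78 had passed, and none of those changed sign. Signs changed in 4 genes that had not passed, and without single libraries their changes ranged from -0.0085 to 0.37 (Adam10), -0.034 to 0.38 (Adam17), -0.28 to 2.96 (Hspa1a) and -0.63 to 0.34 (Aif1). In the blocked fits without pair 1 Adam10 was at -0.089 and Adam17 at -0.11, and without pair 2 Hspa1a was at -0.19. Aif1 was at 0.12 with limma voom, 0.27 with the replicate block, and 0.89 and 0.69 in the blocked fits without pairs 2 and 3. Depth limits low genes: in the shallowest footprint library 3 counts are 1.69 CPM before scaling.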
